A study of Mus musculus with 7 samples.

Results

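The genes described here are 10 components of Wnt signalling in the mouse tailbud: the ligands Wnt3a and Wnt5a, the secreted agonist Rspo3, the secreted inhibitor Dkk1, the intracellular inhibitors Axin2, Nkd1 and Dact1, and Lef1, Sp5 and Tnfrsf19. They were taken by gene symbol from an RNA-seq table of 25965 rows, and all 10 are among the 13997 rows with enough reads to be tested. The libraries came from female FVB/N mouse embryos at E9.5, from a piece of the posterior end cut roughly a somite's length behind the last somite in view and frozen. Of the 7 libraries, 4 were from embryos homozygous for Smchd1 MommeD1, called null here, and 3 from Smchd1 +/+ embryos, called wild-type. Smchd1 encodes a chromosomal protein related to the SMC family, and MommeD1 is a null allele per the labels; the labels name no treatment. The design text counts 3 null samples where the labels list 4. Neither says whether a library is 1 embryo or several, so the p-values measure only the spread between these libraries, which may be technical. The table's columns give the genotype but no sample number, so libraries are lettered within a genotype in column order. Each column name also holds 3 numbers whose meaning no source used here gives, and the middle one was not used. The first is 4180 for null D, wild-type B and wild-type C, 4168 for null B and null C, 4159 for null A and 4121 for wild-type A. The last, called the column number here, is 18 for null A and wild-type B, 21 for null D and wild-type C and 22 for the others.

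In canonical Wnt signalling, a secreted Wnt protein binds a Frizzled receptor and an LRP co-receptor, and beta-catenin then escapes the Axin-containing destruction complex and switches on target genes together with LEF/TCF factors. R-spondins strengthen the signal by removing the ligases that clear Frizzled from the cell surface, while many targets, among them Axin2, Nkd1 and Dkk1, encode inhibitors of the same pathway. In the tailbud, Wnt3a is needed to maintain the progenitors of the trunk and tail mesoderm, and Wnt5a, which acts largely without beta-catenin, is needed for the tail to lengthen.

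Values are reads per 1 M reads of each library's denominator (RPM), as the deposited log2 values give them. The libraries held 22.1 to 23.8 M reads in listed genes in the null group and 19.6 to 23.5 M in the wild-type group. The denominators ran from 59.2 to 68.2 M reads, and the share of them in listed genes was lowest in wild-type C, at 28.8%, and wild-type B, at 31.2%, against 34.3% to 37.9% in the other libraries. The median log2 change of all 13997 genes, null minus wild-type, was 0.16 on the deposited scale. Each change is therefore given also after subtracting every library's median over autosomal genes, which is called centred, and on that scale the median of all genes was -0.03. Smchd1 itself, the gene hit by the allele, had 32.5, 28.6, 35 and 37.0 RPM in the null libraries, against 106, 91.1 and 81.6 RPM in the wild-type libraries, a log2 change of -1.48 ± 0.13 (SE; limma adjusted p = 0.000238), with no overlap.

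The labels call the piece presomitic in one field and postsomitic in another. It was checked with markers of the tailbud and presomitic mesoderm, and all 10 were detected in every library. Their summed level was 353 to 441 RPM in the null libraries and 279 to 397 RPM in the wild-type libraries. Markers of other tissues were present too. The 6 notochord markers, all detected in every library, summed to 36.8 to 47.7 RPM in the null libraries and 20.8 to 27.6 RPM in the wild-type libraries. The 8 hindgut markers summed to 89.9 to 107 RPM in the null libraries and 46.5 to 83.3 RPM in the wild-type libraries, with Spink3 at 0 reads in wild-type B and the other 7 detected in every library. Neither pair of ranges overlaps, and the part of these tissues in the Wnt results was not tested. Foxa2 counts in both lists, so their sums are not separate results. Most of the hindgut sum came from Cdh1, Epcam and Cldn6, with 28.3, 23.1 and 19.8 RPM in null A. The null and wild-type ranges of the neural tube, somite, lateral plate, blood and endothelial, and surface ectoderm sums overlapped. In such bulk tissue, fewer cells of a type and less RNA per cell cannot be told apart.

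Wild-type B stood apart from the other 2 wild-type libraries. Cyp26a1, which encodes the retinoic acid degrading enzyme of the tailbud tip, had 3.06 RPM there, against 32.8 and 35 RPM in wild-type A and C. Fgf8, a growth factor gene of the tip, had 6.02 RPM against 18.1 and 18.3 RPM. Evx1, a homeobox gene of the tip, had 11.5 RPM against 28.7 and 24.4 RPM. These were the 3 of the 10 tailbud markers that lay over 2-fold from both other wild-type libraries, while Dll1, the Notch ligand of the presomitic mesoderm, was highest in wild-type B of all 7 libraries, at 93.4 RPM. Of the genes of more anterior tissue, the neural gene Sox1 reached 18.3 RPM in wild-type B, against 8.86 and 4.89 RPM in wild-type A and C, and the somite gene Meox1 reached 50.0 RPM, against 24.9 and 5.80 RPM. Pax9, on the same somite list as Meox1, went the other way, with 0.428 RPM in wild-type B against 4.25 and 4.16 RPM. By the same 2-fold measure Neurog2, Nkx6-1 and Trh were also higher and Pax9, Gata4, Isl1, Tbx4, Gata1 and Klf1 lower in wild-type B. Other libraries had fewer such markers: Pax9 was lower in null A, Gata4 in null B, Nkx1-2, Sox1, Neurog2 and Sox3 in null C, Hand1 in null D, and Neurog2, Nkx6-1, Meox1 and Tcf15 in wild-type C, while Neurog2 was higher in null D. Results for the 10 Wnt genes are therefore given with and without wild-type B, and the part these differences play in the results was not tested.

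Over the 10 Wnt genes, 0 passed limma's test at an adjusted p under 0.05 on the deposited scale, where 6 of all 13997 genes passed (0.0429%), and 0 passed on the centred scale, where 8 passed (0.0572%). Limma with voom weights on recovered reads, centred, also called 0 of the 10. At an unadjusted p under 0.05 on the deposited scale, 4 of the 10 were higher in null embryos (Wnt3a, Wnt5a, Rspo3 and Sp5), against 13.9% of all genes tested, and 0 were lower, against 0.114%. On the centred scale 0 were higher at that threshold, against 7.29% of all genes, and 2 were lower (Nkd1 and Tnfrsf19), against 6.71%. The median change of the 10 genes was 0.30 as deposited, beside 0.16 for all genes, and 0.11 centred, beside -0.03. With wild-type B left out, their centred median was 0.03, beside -0.02 for all genes. The count of 0 depended on the libraries used on the deposited scale. Without wild-type A, Wnt5a and Rspo3 passed, among 4205 of all genes. With estimated library weights Wnt3a, Wnt5a, Rspo3, Dkk1 and Sp5 passed, among 5280 of all genes. The weighted log2 change of Wnt3a was 3.19, against 1.5 unweighted. With log2 values of 4.15, 0.85 and 4.19 in wild-type A to C, that size needs most of the wild-type weight on wild-type B. The weighted fit thus leaned on the library that stood apart. Centred, 0 of the 10 passed whichever library was left out.

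**Figure D1:**
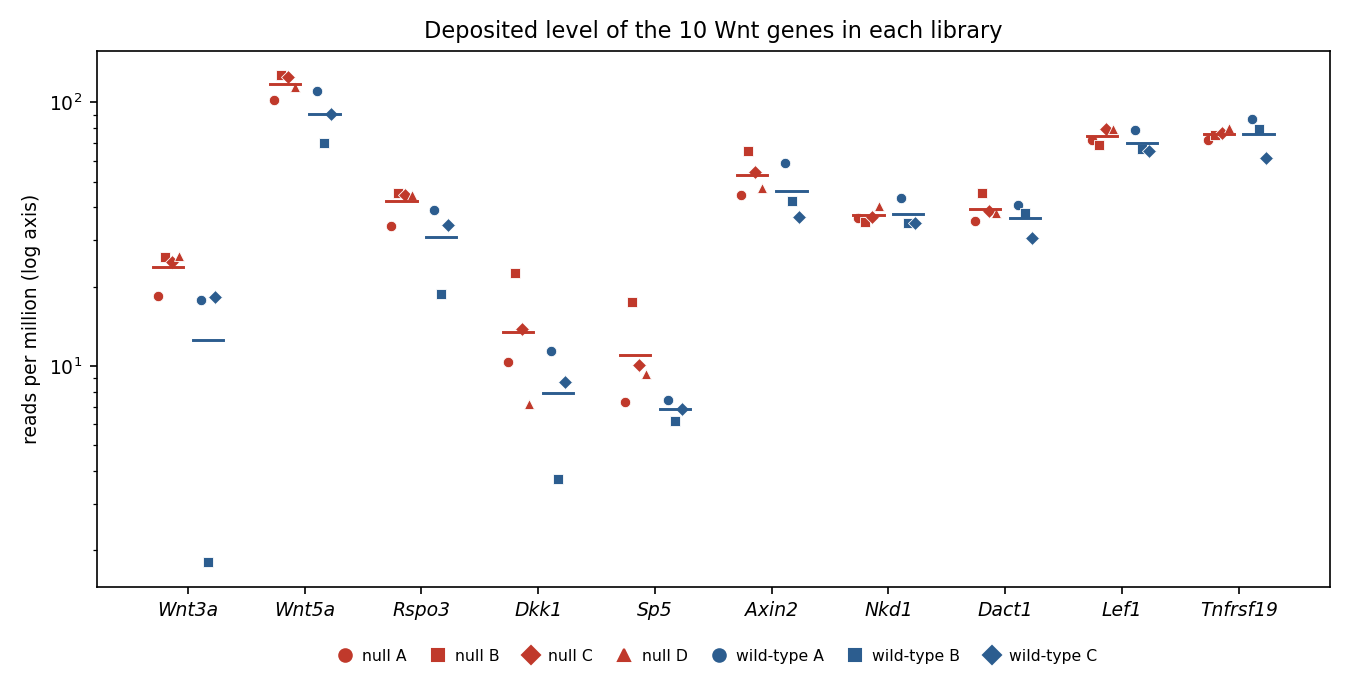
RPM of each of the 10 Wnt genes in each library on a log axis, with the 4 null libraries (red) left of the 3 wild-type libraries (blue), 1 symbol for each library and a line at the arithmetic mean of each group. Wild-type B lies far below the other libraries for Wnt3a, at 1.80 RPM, and is also the lowest library for Rspo3, Wnt5a, Dkk1 and Sp5, while the groups lie over each other for Nkd1, Dact1, Lef1 and Tnfrsf19.

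Upstream sequence was available for 8 of the 10 genes in the RefSeq table of promoters for GRCm38.p6 used here, which held no window for Rspo3 and Wnt5a. The 250 bases before the annotated start are shown for the ligand Wnt3a and for Axin2 and Sp5, 2 direct targets of the pathway, to compare their base composition and the words in them. Capitals mark words of the LEF/TCF type on either strand, which were the word CTTTGAT, the word CTTTGTT, the word CTTTGAA and the word CTTTGTA, of which no pair overlaps here. All are written 5′ to 3′ on the gene's strand, from chr11:59290752-59291001 (minus strand) for Wnt3a, chr11:108920099-108920348 (plus strand) for Axin2 and chr2:70474673-70474922 (plus strand) for Sp5.
Wnt3a: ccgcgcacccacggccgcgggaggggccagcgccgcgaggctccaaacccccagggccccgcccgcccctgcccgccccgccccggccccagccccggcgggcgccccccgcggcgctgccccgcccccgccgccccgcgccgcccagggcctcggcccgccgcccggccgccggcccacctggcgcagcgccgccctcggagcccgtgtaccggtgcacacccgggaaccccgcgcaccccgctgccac
Axin2: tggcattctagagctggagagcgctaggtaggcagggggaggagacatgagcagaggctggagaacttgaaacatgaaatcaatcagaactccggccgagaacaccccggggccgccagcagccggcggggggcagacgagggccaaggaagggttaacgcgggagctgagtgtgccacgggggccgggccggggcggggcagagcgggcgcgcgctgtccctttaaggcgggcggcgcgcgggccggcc
Sp5: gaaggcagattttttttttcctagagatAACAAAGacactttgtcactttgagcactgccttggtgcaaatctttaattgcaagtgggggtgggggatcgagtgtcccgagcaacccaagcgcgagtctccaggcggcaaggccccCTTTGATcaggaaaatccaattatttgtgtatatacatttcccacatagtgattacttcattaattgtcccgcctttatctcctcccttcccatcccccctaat
The Wnt3a window is 87.6% G and C and the Axin2 window 69.2%, and neither holds any of the 4 words. The Sp5 window is 46.0% G and C, below the median of 52.4% over all windows, and holds a CTTTGAT 104 to 98 bases before the start and a CTTTGTT on the opposite strand 222 to 216 bases before it. In Dkk1, a pair of words lies 117 to 92 bases before the start that RefSeq gives, and the 26 bases from the first to the last (chr19:30549588-30549613, minus strand) are shown because they carry both. That stretch lies inside the Dkk1 gene as the deposited table places it (chr19:30545863-30549665, minus strand), so the 2 annotations put the start of Dkk1 at different positions.
Dkk1: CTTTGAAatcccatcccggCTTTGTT
Any of the 4 words occurs in 14.8% of the 32851 promoter windows of the same length in the table, with CTTTGAT in 3.21%, CTTTGTT in 5.03%, CTTTGAA in 4.46% and CTTTGTA in 3.20%. One of several windows of Lef1 and of Tnfrsf19 also held a word, and those of Nkd1 and Dact1 held none. The Lef1 and Tnfrsf19 windows with a word, and the Nkd1 window, also lie inside these genes as the deposited table places them. A match describes the letters of a window and is not evidence of a bound site.

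Wnt3a (chr11:59248033-59290752, minus strand, mm10), the ligand of the tailbud progenitors, had 18.4, 26.0, 24.9 and 26.1 RPM in null A to D, against 17.8, 1.80 and 18.2 RPM in wild-type A to C. In reads, the lowest null library had 1239, and wild-type B had 118 beside 1102 and 1243 in wild-type A and C. The deposited values of the groups did not overlap, but only by the distance between 18.4 RPM in null A and 18.2 RPM in wild-type C, and 1 library of 7, wild-type B, lay far below the rest. Wnt3a was the only one of the 10 genes without overlap and higher in null embryos on that scale, as were 7.02% of all genes tested; for the reverse direction the count was 0 of 10, against 0.0572%. Wnt3a's log2 change was 1.5 ± 0.58 (SE, 2.83-fold, limma adjusted p = 0.298) and 1.31 ± 0.70 centred (adjusted p = 0.382). This SE is limma's moderated one, which draws a gene's variance towards the trend over all genes. The SD of the deposited log2 values of Wnt3a was 1.92 in the 3 wild-type libraries and 0.24 in the 4 null libraries. Without wild-type B the log2 change was 0.39 ± 0.18 deposited and 0.24 ± 0.16 centred. Among libraries with the same number in the column name, the null minus wild-type difference in Wnt3a was 3.16 centred for number 18, 0.10 for number 21 and 0.57 for number 22. In wild-type B its ratio to the median of the other 6 libraries was 0.0924 after centring. The libraries with the number 18, null A and wild-type B, were the lowest in their groups for Wnt3a.

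Wnt5a (chr14:28504750-28527447, plus strand), the ligand of the extending tail, had 102, 127, 125 and 114 RPM in the null libraries, against 111, 69.9 and 90.7 RPM in the wild-type libraries. Wild-type A lay inside the null range, so the groups overlapped. Its log2 change was 0.39 ± 0.14 (SE; 1.31-fold; limma adjusted p = 0.278), 0.20 ± 0.11 centred, and 0.07 ± 0.08 centred without wild-type B.

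Rspo3 (chr10:29453109-29535867, minus strand), the R-spondin that potentiates Wnt ligands through LGR receptors, had 34.1, 45.4, 44.7 and 44.6 RPM in the null libraries, against 39.2, 18.8 and 34.2 RPM in the wild-type libraries. Null A, the lowest null library, lay between wild-type B and wild-type A. The log2 change was 0.52 ± 0.21 (SE; 1.43-fold; limma adjusted p = 0.308) and 0.32 ± 0.20 centred. Leaving out wild-type B brought it to 0.19 ± 0.17 deposited and 0.04 ± 0.11 centred.

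The balance of the ligands within a library does not change when all values of that library are multiplied by 1 factor. In log2 RPM, Wnt3a minus Wnt5a was -2.46, -2.28, -2.33 and -2.13 in the null libraries, against -2.65, -5.28 and -2.32 in the wild-type libraries. Wild-type B again set the spread, and wild-type C lay within the null range. Null libraries averaged -2.30 ± 0.14 (SD, n = 4) and wild-type libraries -3.41 ± 1.62 (SD, n = 3), a difference of 1.11 (two-sided exact permutation p = 0.0857, adjusted over both differences tested 0.114). Without wild-type B the difference was 0.18. The 35 ways of splitting the libraries allow no p under 0.0286.

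Dkk1 (chr19:30545863-30549665, minus strand), which encodes a secreted inhibitor that blocks the LRP co-receptors, varied widely within both genotypes. It had 10.4, 22.5, 13.8 and 7.17 RPM in the null libraries, against 11.4, 3.71 and 8.67 RPM in the wild-type libraries. Null B was the highest library and wild-type B the lowest, and null D lay within the wild-type range. For Dkk1 the log2 change was 0.78 ± 0.38 (SE; 1.72-fold; limma adjusted p = 0.372), 0.59 ± 0.44 centred and 0.16 ± 0.40 centred without wild-type B. Within column numbers its centred difference was 1.29 for 18, -0.69 for 21 and 0.67 for 22, so its sign was not shared.

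Axin2 (chr11:108920349-108950783, plus strand), a scaffold of the destruction complex and a widely used readout of beta-catenin signalling, was not lowest in wild-type B. It had 44.5, 65.6, 54.4 and 47.2 RPM in the null libraries, against 58.9, 42.2 and 36.8 RPM in the wild-type libraries. Wild-type B, with the lowest Wnt3a of all libraries, lay between the other 2 wild-type libraries in Axin2. The log2 change was 0.21 ± 0.17 (SE; limma adjusted p = 0.544) and 0.02 ± 0.13 centred, and 0.02 ± 0.16 centred without wild-type B. Axin2 minus Wnt3a in log2 RPM was 1.27, 1.33, 1.13 and 0.86 in the null libraries, against 1.73, 4.55 and 1.01 in the wild-type libraries. Null libraries averaged 1.15 ± 0.21 (SD, n = 4) and wild-type libraries 2.43 ± 1.87 (SD, n = 3), a difference of -1.28 (two-sided exact permutation p = 0.114, adjusted p = 0.114), and -0.23 without wild-type B.

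Nkd1 (chr8:88521344-88594887, plus strand), an inhibitor that acts on Dishevelled, had 36.5, 35.2, 36.9 and 40.5 RPM in the null libraries, against 43.4, 35 and 34.8 RPM in the wild-type libraries, and the groups overlapped. The deposited log2 change was -0.01 ± 0.12 (SE; limma adjusted p = 0.955). Relative to the autosomal median, its log2 value was 1.14, 1.04, 1.02 and 1.15 in the null libraries, against 1.25, 1.27 and 1.35 in the wild-type libraries. On that scale all 4 null libraries lay below all 3 wild-type ones, by a log2 change of -0.20 ± 0.05 (SE; limma adjusted p = 0.302), and it was -0.21 ± 0.06 without wild-type B.

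Tnfrsf19 (chr14:60963834-61046855, minus strand), a receptor of the TNF family also known as Troy and a Wnt target, was the other gene of the 10 whose groups separated after centring. It had 72.1, 75.4, 76.8 and 79.9 RPM in the null libraries, against 86.4, 79.5 and 61.8 RPM in the wild-type libraries, with overlap. Its centred log2 value was 2.12, 2.13, 2.07 and 2.13 in the null libraries, against 2.24, 2.46 and 2.17 in the wild-type libraries. The change was 0.02 ± 0.12 as deposited and -0.18 ± 0.07 centred (SE; limma adjusted p = 0.936 and 0.352), and -0.09 ± 0.04 centred without wild-type B, so its sign depended on the scaling. These 2 of the 10 genes without overlap and lower in null embryos compare with 6.24% of all genes on the centred scale, and the 0 of 10 in the higher direction with 6.51%.

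Dact1 (chr12:71309884-71320107, plus strand), a Dishevelled-binding regulator, had 35.5, 45.3, 38.7 and 38.0 RPM in the null libraries, against 41.0, 38.0 and 30.7 RPM in the wild-type libraries. Lef1 (chr3:131110471-131224356, plus strand), the DNA-binding partner of beta-catenin and itself a target, had 72.0, 69.0, 79.0 and 79.2 RPM in the null libraries, against 78.8, 66.7 and 65.5 RPM in the wild-type libraries. For both genes the groups overlapped. Their log2 changes were 0.11 ± 0.13 for Dact1 (SE; limma adjusted p = 0.646) and 0.09 ± 0.11 for Lef1 (adjusted p = 0.651). Centred, these were -0.08 ± 0.10 and -0.10 ± 0.05, so the sign of both turned with the scaling. Without wild-type B the centred changes were -0.00359 for Dact1 and -0.09 for Lef1.

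Sp5 (chr2:70474923-70477729, plus strand), a zinc-finger transcription factor gene and direct Wnt target, had 7.31, 17.5, 10.1 and 9.29 RPM in the null libraries, against 7.46, 6.20 and 6.86 RPM in the wild-type libraries. Here the spread was on the null side: null B had the highest value by a wide margin, null A lay within the wild-type range, and wild-type B was close to the other wild-type libraries. The log2 change was 0.62 ± 0.24 (SE; 1.53-fold; limma adjusted p = 0.298) and 0.43 ± 0.26 centred. Without wild-type B it was 0.55 ± 0.21 deposited and 0.40 ± 0.31 centred (adjusted p = 0.316 and 0.731). With null B left out instead, it was 0.37 deposited and 0.17 centred.

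**Figure D2:**
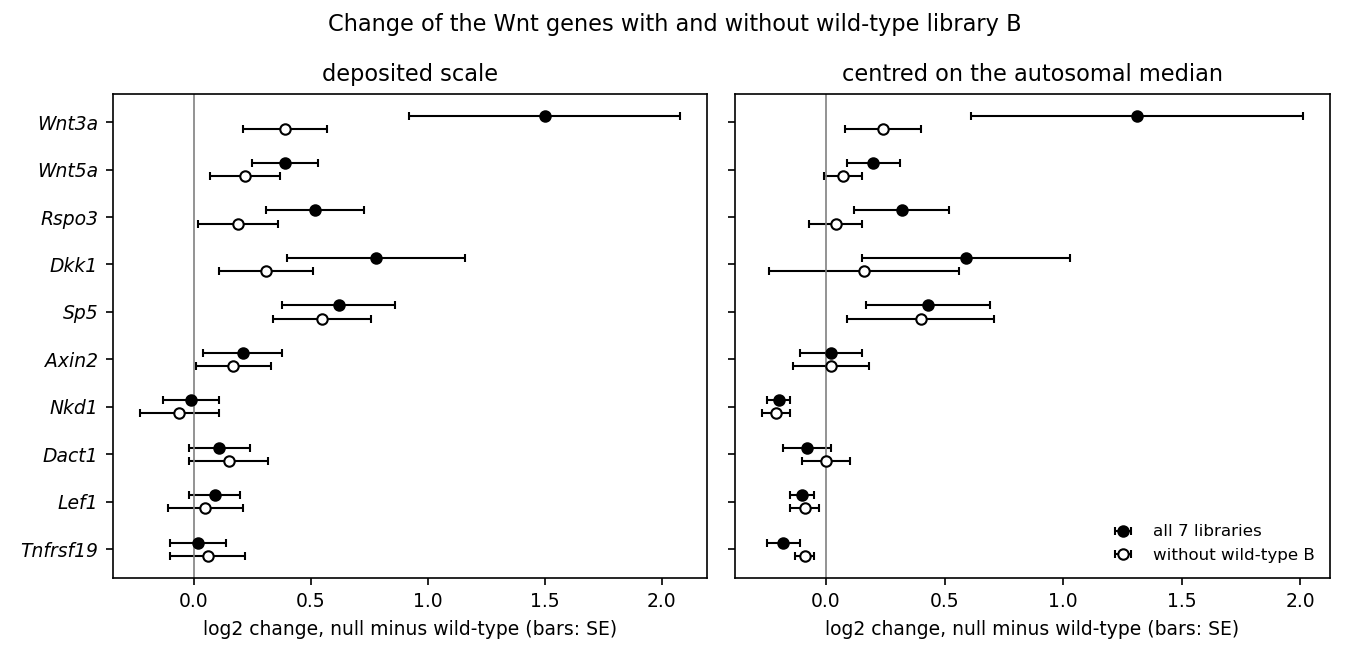
Log2 change of each of the 10 Wnt genes, null minus wild-type, with bars of 1 moderated SE from limma. The left panel has the deposited scale and the right panel the values centred on the autosomal median. Filled points use all 7 libraries and open points leave out wild-type B. The filled point of Wnt3a lies at 1.5 and its open point at 0.39 on the deposited scale, and without wild-type B the centred changes of the 10 genes lie between -0.21 and 0.40.

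Measured against the median of the other 6 libraries on the centred scale, wild-type B lay at -3.44 log2 units for Wnt3a, -1.30 for Dkk1, -0.92 for Rspo3, -0.41 for Wnt5a and -0.24 for Sp5. The remaining 5 genes lay at or above that median in the same library, with 0.04 for Axin2, 0.09 for Lef1, 0.13 for Nkd1, 0.26 for Dact1 and 0.33 for Tnfrsf19. Among the other 6 libraries the centred value of Wnt3a spanned 0.64, and wild-type B was outside it. Wild-type B also lay below the span of the rest for Dkk1, Rspo3 and Wnt5a, and above it for Tnfrsf19. For Sp5, Axin2, Nkd1, Dact1 and Lef1 it was within the span of the rest. After each gene's own mean was subtracted, the closest pair over the 7 libraries was Lef1 and Nkd1, with a root mean square difference of 0.07 log2 units, and the farthest was Tnfrsf19 and Wnt3a, at 1.30.

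Levels can be compared between genes only per length, as RPM per kb of exon. In null embryos the order was Tnfrsf19 at 16.1 ± 0.675, Wnt5a at 15.0 ± 1.48, Rspo3 at 13.7 ± 1.75, Dact1 at 10.5 ± 1.11, Axin2 at 9.61 ± 1.71, Wnt3a at 8.64 ± 1.32, Lef1 at 8.51 ± 0.583, Nkd1 at 8.18 ± 0.497, Dkk1 at 5.55 ± 2.73 and Sp5 at 5.26 ± 2.12 (SD, n = 4). The ranges of all neighbours in this order overlapped. In wild-type embryos the first 5 genes kept that order, from 16.0 ± 2.68 for Tnfrsf19 to 8.35 ± 2.10 for Axin2 (SD, n = 3), followed by Nkd1 at 8.28 ± 1.07 and Lef1 at 8.0 ± 0.837. Wnt3a came next at 4.56 ± 3.39, with its highest wild-type library, at 6.6, below the lowest for Lef1, at 7.46, and Dkk1 at 3.27 ± 1.61 and Sp5 at 3.26 ± 0.300 closed the order. The drop to Wnt3a was the only step between neighbours in the wild-type order without overlap.

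For the 4 genes whose centred value spanned at least 1 log2 unit, Wnt3a, Rspo3, Dkk1 and Sp5, the 5 genes of most similar profile over the 7 libraries were picked from 12575 genes by the root mean square difference in log2. Wnt3a was followed most closely by Cyp26a1, at 0.08, which had 37.2, 46.1, 45.3 and 46.7 RPM in the null libraries, against 32.8, 3.06 and 35 RPM in the wild-type libraries. Bmper, which encodes a BMP-binding secreted protein, came next at 0.14, with Tg at 0.19, Adamtsl2 at 0.20 and Sct at 0.24, all lowest in wild-type B. Adamtsl2, for example, had 55.3, 77.0, 82.6 and 95.5 RPM in the null libraries, against 49.2, 7.13 and 47.3 RPM in the wild-type libraries. Closest to Rspo3 were Stat6 and Vwa5a, both at 0.06, and Mtus1, Capn1 and Bmp7, all at 0.07. The genes nearest to Dkk1 (Tnik and Lpin3 at 0.27, Map3k5 at 0.29, Prkca at 0.31 and Hr at 0.32) and to Sp5 (Grik3 at 0.17, Slc29a3 at 0.21, and Gm11748, Sema4f and Foxd1 at 0.22) were less close. These are descriptions over 7 libraries, and wild-type B was the lowest of them for Wnt3a, Rspo3 and Dkk1 after centring.

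**Figure D3:**
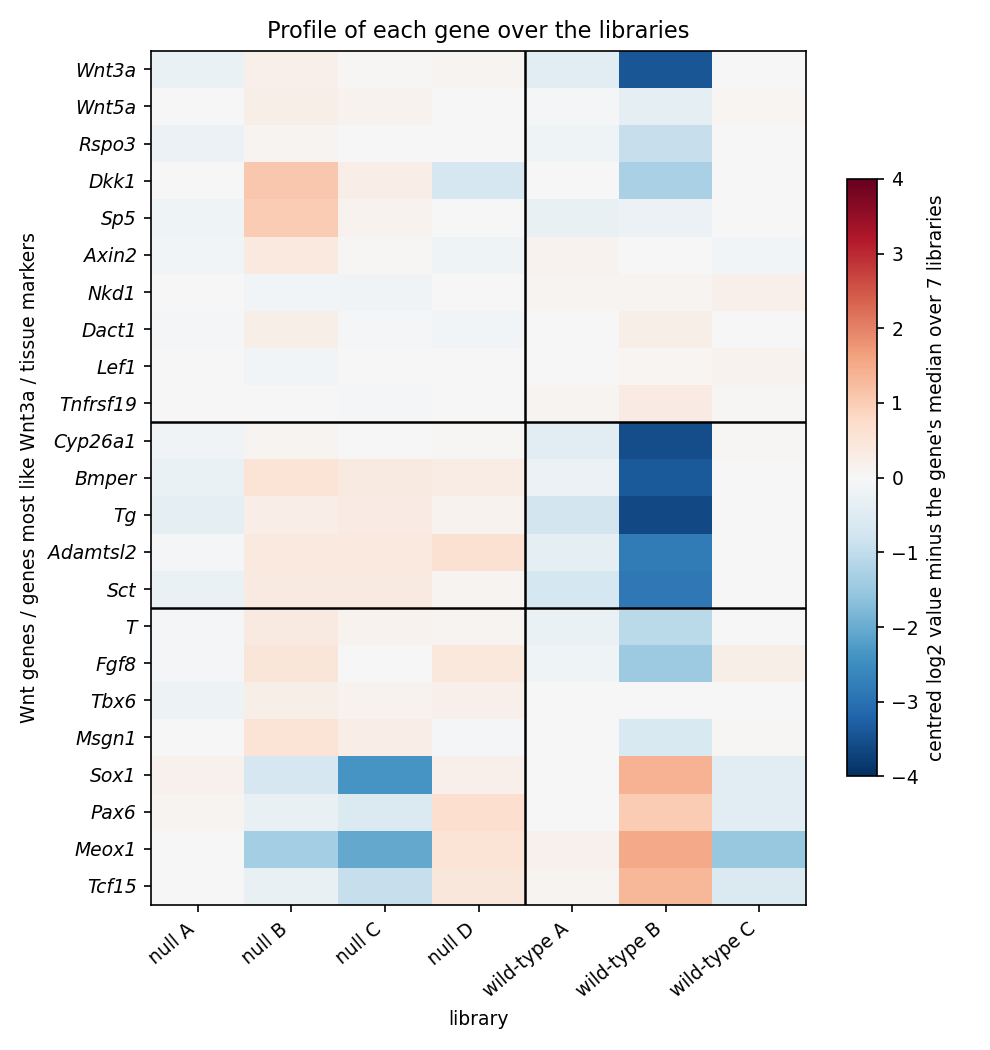
Centred log2 value of each gene minus its own median over the 7 libraries, as colour (red above, blue below), with null libraries left of the vertical line and wild-type libraries right of it; rows are the 10 Wnt genes, the 5 genes most like Wnt3a, and 8 tissue markers. The column of wild-type B is deep blue for Wnt3a, which had 1.80 RPM there, and for the genes most like it, pale for most Wnt targets, and red for Sox1 and Meox1.

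The rest of the pathway was read from 9 lists of Wnt genes, with the 10 genes left out of each. In no list did a gene pass limma's adjusted threshold on either scale, so the counts below are at an unadjusted p under 0.05 and are to be read against 13.9% of all genes higher as deposited, and 7.29% higher and 6.71% lower centred. Of 14 other Wnt ligands tested, 8 were higher in null embryos as deposited and 3 after centring, 0 were lower on either scale, and the centred median was 0.19, or 0.11 without wild-type B. Wnt10a had 1.16, 2.08, 1.66 and 2.75 RPM in the null libraries, against 0.902, 0.550 and 1.14 RPM in the wild-type libraries, a log2 change of 1.14 (adjusted p = 0.245) and 0.94 centred. Wnt11, a ligand of cell movement, had a log2 change of 0.62 and 0.43 centred (adjusted p = 0.272 and 0.352).

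Among 6 secretion genes the centred median was -0.06, with 1 higher and 0 lower after centring. That gene was Porcn, the X-linked acyltransferase that lipidates Wnts, with 9.29, 10.5, 9.94 and 15.0 RPM in the null libraries, against 7.75, 7.04 and 5.73 RPM in the wild-type libraries, without overlap (log2 change 0.69, adjusted p = 0.187, and 0.50 centred). Wls, the carrier of Wnts to the cell surface, had log2 changes of 0.22 deposited and 0.02 centred. Of 6 genes for other R-spondins, their receptors and ligases, 1 was higher and 0 lower, with a median of -0.07. Rnf43, the ligase that clears Frizzled and is itself a Wnt target, had 11.2, 13.0, 14.8 and 15.0 RPM in the null libraries, against 9.41, 3.83 and 7.43 RPM in the wild-type libraries. Its log2 change was 1.06 (adjusted p = 0.152), 0.86 centred and 0.53 centred without wild-type B. For Lgr5, a receptor of R-spondins, the changes were 0.43 and 0.23 centred, with overlap. Of 16 receptors, 1 was higher and 2 lower, with a centred median of -0.16, beside -0.03 for all genes; as deposited, 2 were higher and 0 lower. The centred change of 3 of the 16 was above 0, and the 2 lower ones were Fzd2 at -0.38 and Lrp6 at -0.19 (adjusted p = 0.352 for both). The higher one, Fzd6, had 10.1, 15.0, 15.5 and 11.6 RPM in the null libraries, against 9.93, 6.63 and 6.90 RPM in the wild-type libraries (log2 change 0.74, adjusted p = 0.180, and 0.55 centred). Ptk7, a co-receptor of planar polarity, had changes of 0.28 and 0.09 centred.

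Among 12 other secreted inhibitors, 1 was higher and 1 lower, both as deposited and centred, with a centred median of 0.01 that was -0.24 without wild-type B. On the deposited scale these were Kremen1 and Sfrp4, and on the centred scale Kremen1 and Sfrp1, a Frizzled-related inhibitor with a centred change of -0.38 (adjusted p = 0.352). Kremen1, a co-receptor of Dkk proteins, had a log2 change of 0.42 and 0.23 centred. Sfrp4, a secreted Frizzled-related inhibitor, had -1.69 and -1.88 centred, but its values of 0.655, 0.312, 0.169 and 2.42 RPM in the null libraries, against 0.677, 1.80 and 4.26 RPM in the wild-type libraries, overlapped widely. On the centred scale 0 of 17 cytoplasmic genes were higher and 4 lower (median -0.10), and 0 of 10 nuclear effectors were higher and 2 lower (median -0.10). These counts belong to that scale: as deposited, 1 cytoplasmic gene was higher and 0 lower, and 0 nuclear genes were higher and 0 lower. The 4 cytoplasmic genes were the destruction complex scaffold Axin1 (-0.13 centred, 0.06 deposited) and the kinases Gsk3b (-0.16 and 0.03), Csnk1a1 (-0.12 and 0.07) and Csnk1e (-0.16 and 0.03). The 2 nuclear genes were the co-activator gene Pygo2 (-0.17 and 0.02) and the co-repressor gene Tle4 (-0.21 and -0.02). Their centred adjusted p values were 0.259 to 0.352. Btrc, which targets beta-catenin for degradation, had log2 changes of 0.30 and 0.10 centred, and Dvl3, a Dishevelled, 0.15 and -0.05. Of the nuclear genes, Pygo1, a co-activator of beta-catenin, had 0.35 and 0.16 centred, and Tle1, a co-repressor of TCF factors, 0.15 and -0.04. Of 9 planar polarity genes, 1 was higher and 0 lower as deposited. Centred, 0 were higher and 1 lower (median -0.08). The gene lower after centring was Celsr3. It had 2.19, 1.89, 2.32 and 2.22 RPM in the null libraries, against 3.27, 2.81 and 2.30 RPM in the wild-type libraries. Its log2 change was -0.37, with overlap, and -0.56 centred. The gene higher as deposited was Prickle3, X-linked, with 0.48 and 0.29 centred. Without wild-type B the centred change was 0.23 for Wnt11, 0.15 for Kremen1 and 0.11 for Prickle3.

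Of 14 other tailbud targets, 4 were higher and 0 lower as deposited. On the centred scale 3 were higher and 1 lower, and the centred median of the 14 was 0.00. The smallest p of all pathway genes named here belonged to Cdx4, an X-linked homeobox gene of the posterior axis. It had 47.2, 53.1, 51.6 and 51.1 RPM in the null libraries, against 37.7, 27.0 and 34.5 RPM in the wild-type libraries, with a gap between the groups. The log2 change was 0.63 ± 0.13 (SE; limma adjusted p = 0.107), 0.44 centred and 0.34 centred without wild-type B. T, the mesodermal transcription factor downstream of Wnt3a, had 70.9, 99.5, 91.8 and 90.2 RPM in the null libraries, against 69.3, 31.5 and 62.7 RPM in the wild-type libraries (centred log2 change 0.57, adjusted p = 0.352), and its centred change was 0.26 without wild-type B. The third higher gene was Rnf43, given above. The lower one was Cdx1, another homeobox gene of the posterior axis, which had 6.24, 5.57, 6.66 and 7.12 RPM in the null libraries, against 7.41, 8.56 and 6.64 RPM in the wild-type libraries. Its log2 change was -0.23 (adjusted p = 0.521), -0.43 centred (adjusted p = 0.352) and -0.29 centred without wild-type B; the groups overlapped as deposited and not after centring.

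**Figure D4:**
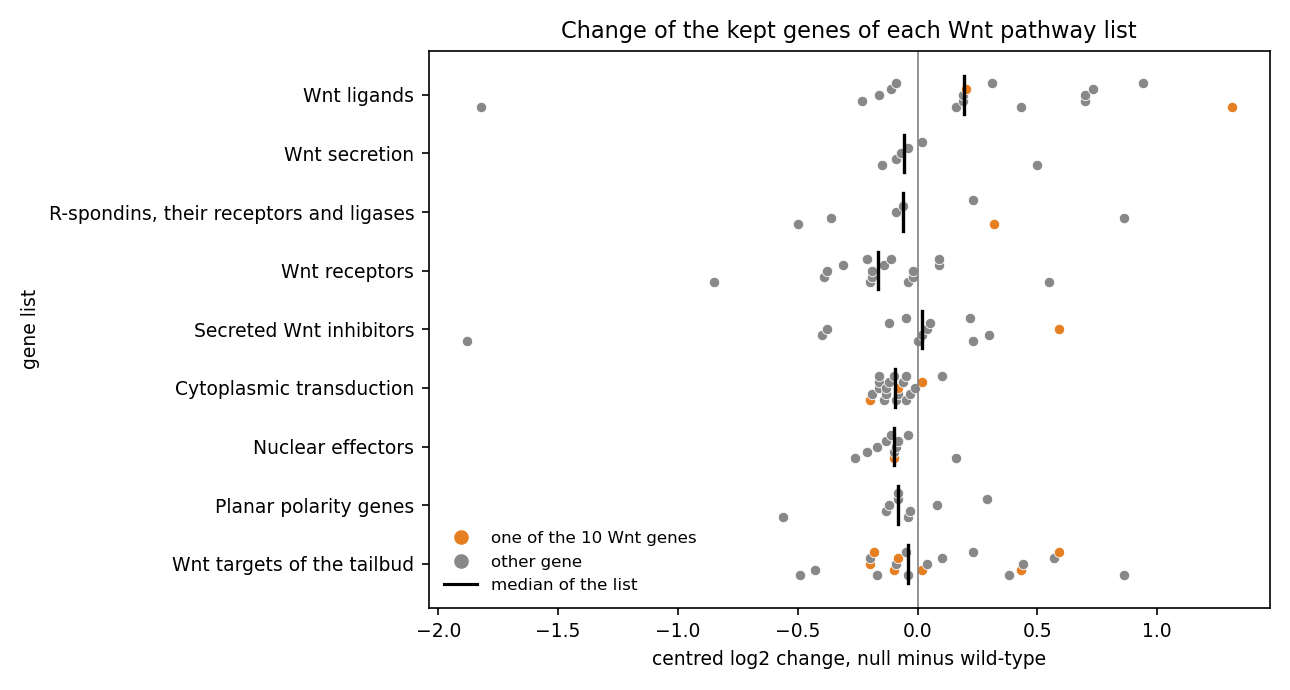
Centred log2 change, null minus wild-type, of every tested gene of the 9 Wnt pathway lists, with the 10 Wnt genes in orange, other genes in grey and a bar at the median of each whole list. The bars lie between -0.16 for the receptors and 0.19 for the ligands, and Wnt3a is the rightmost point, at 1.31.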

How the data were processed

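RNA-seq was made from 4 null and 3 wild-type libraries. The submitters' processing notes name build mm10 and the tools bcl2fastq, TopHat2 2.0.12 and edgeR. Counting tool, strand setting and annotation: not given in the sources used here, so overlapping genes on opposite strands cannot be told apart. The authors deposited log2 values of reads scaled per 1 M (logCPM), a column for each library. Whole reads were recovered from these: below 1000 reads, 100.0% of values were whole within 0.01, and genes without reads stand at 0.9 read.

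A gene was kept when its log2 value exceeded 0 in 3 or more libraries. Genotypes were compared by limma (3.58.1, R 4.3.3) on the log2 values as deposited, with a trended prior and Benjamini-Hochberg adjustment over all 13997 genes, after tests on simulated data. Every SE given with a limma change is moderated by that prior, so it can be smaller than the spread of the gene's own values implies. Within-library differences used exact permutation. Genes without reads are under 0.0440 to 0.0507 RPM, the limit set by 3 reads, for counting error only. Exon lengths are from GENCODE M21, and the rest used Python 3.11.15 with numpy 2.4.6, pandas 2.3.3 and, for plots, matplotlib 3.10.9.

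The genes, lists and tests were chosen with earlier results of these data known. Beyond the 10 genes, those named are the 2 of smallest p in each pathway list without a passing gene, the 5 nearest profiles of genes spanning at least 1 log2 unit, and marker genes over 2-fold from the rest of their group. Smchd1, Dll1, T, Spink3, Cdx1, Sfrp1, Fzd2, Lrp6, Axin1, Gsk3b, Csnk1a1, Csnk1e, Pygo2 and Tle4 were added after their values were seen. Alternatives were other filters, log2(RPM + 1), other scalings and priors, library weights, voom, a block on the column numbers and leaving out each library. A block on the first number of the column names was added after seeing the data.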

Additional observations from a re-analysis of the deposited data

Results flagged for a closer look

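Of 49 results checked for a library far from the others of its group, 5 were singled out, all in the null group and all for the low value of null A on the deposited log2 scale. The wild-type group of 3 libraries was not checked. Chance singles out about 1 in 20 groups of this size, but Cyp26a1, Stat6 and Vwa5a were picked because their values follow Wnt3a or Rspo3, so the 5 are not separate results and their number cannot be set against that rate. Wnt3a was 4.20 in null A, against 4.64 to 4.70 in the other null libraries. For Rspo3 the value was 5.09, against 5.48 to 5.50. Among the genes of similar profile, Cyp26a1 was 5.22 against 5.50 to 5.55, Stat6 was 3.11 against 3.63 to 3.68, and Vwa5a was 3.53 against 3.90 to 3.96. The gap of null A to its nearest neighbour was 0.864 of the whole range for Wnt3a and 0.938 for Rspo3, above Dixon's critical value. After centring the highest such ratio at either end of the null range was 0.658 for Wnt3a, 0.677 for Rspo3, 0.571 for Cyp26a1 and 0.612 for Vwa5a, all below the critical value, and 0.893 for Stat6, above it.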

How the results depend on the processing

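The count of Wnt genes past the adjusted threshold was 0 on the deposited scale and stayed at 0 with no filter, a stricter filter, log2(RPM + 1), autosomal centring, quantile or cyclic loess scaling, no prior trend, a robust prior and voom. It was 5 with library weights, a fit that leaned on wild-type B, and 0 to 2 when each library was left out in turn. Centred, it was 0 whichever library was left out. Wnt3a, Wnt5a, Rspo3 and Sp5 were higher in null embryos under every alternative run, with Wnt3a from 0.24 to 3.19, and Dkk1 under all but the block on the first column numbers with centring. Dact1, Lef1 and Tnfrsf19 turned negative with centring (-0.08, -0.10 and -0.18), quantile scaling (-0.03, -0.02 and -0.09), cyclic loess (-0.03, -0.02 and -0.10) and voom (-0.08, -0.10 and -0.17). With library weights Nkd1 was 0.05 and Tnfrsf19 -0.03. The cause of these changes was not tested.

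Leaving out 1 library on the deposited scale gave -0.07 to 0.09 for Nkd1, -0.12 to 0.12 for Tnfrsf19 and -0.01 to 0.20 for Dact1. Leaving out 1 library after centring gave -0.10 to 0.09 for Axin2 (-0.10 without null B, -0.04 without wild-type C), and below 0 for the following genes: Dact1 -0.16, -0.12, -0.06, -0.04, -0.00359; Lef1 -0.14, -0.11, -0.09, -0.07; Tnfrsf19 -0.23, -0.20, -0.18, -0.16, -0.09.

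The last numbers in the column names (18, 21 and 22) did not meet the condition for pairing, since the correlation of null and wild-type deviations was 0.36 for 18, -0.05 for 21 and 0.47 for 22. A replicate block on these numbers called 3 of the 10 genes, among 742 genes in all, and gave -0.00433 for Tnfrsf19. The 3 were Wnt3a at 1.37, Rspo3 at 0.45 and Dkk1 at 0.61 (limma adjusted p = 1.16e-13, 0.0409 and 0.0173). The deposited difference of Wnt3a was 3.35 within number 18 and 0.52 within both 21 and 22. Its limma p-value rests little on that spread, because limma draws each gene's variance towards the trend over all genes. With the block and centring the count was 0, and Axin2 was -0.03, Dact1 -0.09, Lef1 -0.09 and Tnfrsf19 -0.17. Wnt3a minus Wnt5a was 1.11 with the block (exact p = 0.0833) and Axin2 minus Wnt3a -1.28 (exact p = 0.0833), the smallest p that the 12 splits within these numbers allow. Of the first numbers only 4180 occurs in both genotypes, where null D and the mean of wild-type B and C deviated with a correlation of 0.31. Deviations were taken from the mean of each genotype, so the mean deviation of wild-type B and C only mirrors that of wild-type A. The correlation therefore cannot tell whether null D, wild-type B and wild-type C are alike. A replicate block on the first numbers, chosen after seeing the data, rests on these 3 libraries; it called 0 of the 10 genes, among 2 in all, and gave 0.21 for Nkd1. With centring it called 0 and gave -0.12 for Axin2, -0.04 for Dkk1, -0.22 for Dact1, -0.12 for Lef1 and -0.19 for Tnfrsf19.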
